A study of Mus musculus with 12 samples.

Results

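Antibody light chain transcripts were followed with 91 of the 39429 array probes used here, 85 at the kappa locus on mouse chromosome 6 and 6 at the lambda locus on chromosome 16. A probe was a member if its annotated mm9 position lay in a window round either locus and its array description or gene name marked it as an immunoglobulin or light chain sequence. The kappa members run from chr6:67505984 to 70676751 and the lambda members from chr16:19061905 to 19241363. The group of features was picked because earlier results of these arrays had shown it higher in YFP+ than in YFP- samples. Its YFP+ against YFP- values are therefore given as a description; where members passing limma's threshold are counted, the share over all probes is printed beside them and nothing is read from the count. The 91 probes carry 86 different feature names: 83 probes are named only by an Ensembl transcript, 2 by an Igk symbol, 1 by an Igl symbol and 5 by other sequence accessions. These names are kept as the array gives them, and several probes can stand for 1 feature. The word variable stands in the array descriptions of 44 of the 91, most of them cloned antibody cDNAs, and the word constant in that of 1.

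The arrays hold 12 samples of macrophages sorted from mouse pancreatic tumours, 6 labelled YFP+ and 6 labelled YFP-, with 6 tumour numbers that occur once in each group. All 12 came from female C57/B6 animals aged 8 to 10 weeks that had been implanted with tumours, and their genotype is entered as not provided. The design text of the series names wild-type, KPC and FLT3-CRE/LSL-YFP mice; which of these, if any, gave the 12 samples was not stated in the labels. In the last of these mice, Cre driven from the Flt3 gene of haematopoietic progenitors would switch on YFP and leave it on in descendants, whatever their later type. Each of 3 slides carried 2 arrays of either group. Whether a tumour number stands for 1 animal was not stated, so the spread between samples may be partly technical.

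An antibody light chain is either a kappa or a lambda chain, and it pairs with a heavy chain. Each light chain gene is assembled in a developing B cell by joining 1 of many variable (V) segments to a joining (J) segment, upstream of a constant (C) region, so that a single B cell and its descendants normally carry 1 light chain V segment. Plasma cells, the antibody-secreting end stage of B cells, hold these transcripts in very large amounts, while macrophages are known for binding antibodies through Fc receptors and not for making them.

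The probes are 60 bases long, and the sequences of all 6 lambda probes are shown because they decide how far the lambda features can be read apart. They are written from 5′ to 3′ as the scanner files give them, and capitals mark a run of 42 bases that 2 of the probes share letter for letter.
AF138742, a J-C lambda 3 cluster sequence (chr16:19065462-19065521, minus strand): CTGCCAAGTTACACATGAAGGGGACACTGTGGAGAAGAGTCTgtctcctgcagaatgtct
ENSMUST00000103749, probe A_55_P2145224 (chr16:19198651-19198710, minus strand): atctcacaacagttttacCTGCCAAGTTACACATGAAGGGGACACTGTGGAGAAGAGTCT
ENSMUST00000103749, probe A_55_P2057283 (chr16:19198704-19198763, minus strand): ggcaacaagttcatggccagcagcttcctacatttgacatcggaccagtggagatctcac
Iglv1 (chr16:19061905-19061964, minus strand): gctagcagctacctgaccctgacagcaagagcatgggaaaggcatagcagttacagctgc
ENSMUST00000103746 (chr16:19085111-19085170, minus strand): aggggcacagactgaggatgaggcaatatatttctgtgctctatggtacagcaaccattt
ENSMUST00000103751 (chr16:19241304-19241363, minus strand): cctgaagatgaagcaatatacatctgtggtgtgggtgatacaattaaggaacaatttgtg
The AF138742 probe and the first ENSMUST00000103749 probe are annotated to different places of the locus, so a transcript holding the shared run could bind to either.

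At the kappa locus 5 probes are shown: that with the largest difference, that with the largest difference among probes detected in both groups, the brightest, the only one whose array description names the kappa constant region, and 1 of a pair of near copies. Capitals in the last mark 45 bases that it shares letter for letter with the probe of ENSMUST00000103318.
ENSMUST00000103312 (chr6:67892237-67892296, minus strand): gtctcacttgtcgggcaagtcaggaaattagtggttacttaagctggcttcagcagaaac
ENSMUST00000103321 (chr6:68221019-68221078, plus strand): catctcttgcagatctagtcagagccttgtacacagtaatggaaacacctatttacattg
ENSMUST00000103410 (chr6:70676692-70676751, plus strand): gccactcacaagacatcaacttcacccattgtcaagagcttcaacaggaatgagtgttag
Igkv4-53 (chr6:69413673-69413732, minus strand): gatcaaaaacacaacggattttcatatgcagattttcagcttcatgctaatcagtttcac
ENSMUST00000103322 (chr6:68253091-68253150, plus strand): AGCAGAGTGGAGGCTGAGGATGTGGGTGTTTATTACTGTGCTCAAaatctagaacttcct
Near copies are common in this family. Of 4095 pairs of members, 67 matched at 80% or more of at least 40 overlapping bases without gaps, and 55 of the 91 members were in such a pair. Another 60-base probe that is no member shared a run of at least 15 bases with 34 members. How much of a member's signal comes from a like sequence was not tested.

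Light chain signal was higher in the YFP+ samples at both loci. Levels are log2 processed signal minus the 75th percentile of the array, so that 0 is a bright probe of that array. Values near -6.5 or lower are at background, and some higher values were not detected either. ENSMUST00000103374, above background on 4 of 6 YFP+ arrays, had -4.85 and -5.13 as its lowest YFP+ values. The kappa medians of YFP- arrays, and differences from them, rest partly on undetected values. Background lay somewhat lower in YFP+ arrays, so that a probe at background could differ toward YFP-. For example, A_55_P2169569, a probe of the kappa window above background on 0 arrays, had means of -7.16 in YFP+ and -6.74 in YFP- samples. The median level of the 85 kappa probes was 0.15 ± 1.99 in YFP+ and -4.14 ± 1.12 in YFP- samples (SD over arrays, n = 6 each). In YFP+ samples of tumours 1 to 6 it was 0.72, -1.90, 0.41, 1.95, 2.29 and -2.56. In YFP- samples of the same numbers it was -4.89, -3.38, -5.69, -3.51, -2.71 and -4.67. The 2 groups did not overlap, but the lowest YFP+ arrays, tumours 6 and 2, came close to the highest YFP- array, tumour 5. Both of these lowest YFP+ arrays were on slide 1.

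The median of the 6 lambda probes followed the same order of tumours within YFP+. It was 1.0, -2.03, -0.69, 1.97, 2.84 and -2.16 in YFP+ samples of tumours 1 to 6, and -2.55, -3.02, -3.39, -2.40, -2.45 and -2.84 in the YFP- samples. From the lowest to the highest, the YFP+ tumours ran 6, 2, 3, 1, 4 and 5 for kappa and for lambda alike. Across the YFP- samples the lambda medians spread little (SD 0.38, n = 6), and they lay close to those of YFP+ tumours 2 and 6.

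Detection comes from the same signals as the levels and is given as a description too. The scanner software called 57 to 83 of the 85 kappa probes well above background in YFP+ arrays, and 35 to 51 in YFP- arrays. The array of YFP+ tumour 6 had 57 and that of YFP+ tumour 5 had 83. Of all spots but the controls, 63.4 to 66.3% were so called in YFP+ arrays and 61.6 to 64.3% in YFP- arrays. All 6 YFP+ arrays detected 52 of the kappa probes, all 6 YFP- arrays detected 25, and 18 kappa probes were above background on none of the YFP- arrays. Every kappa probe was above background on at least 1 YFP+ array, since the number detected on none of them was 0.

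Over all 85 kappa probes the median difference was 3.50 on the log2 scale, or 11.3-fold, with quartiles of 2.62 and 4.67. The difference was toward YFP+ for 83 probes. The 2 exceptions, ENSMUST00000103332 (-0.12) and ENSMUST00000103373 (-0.51), were each detected on few arrays, the second on 1 of each group. Over all 25435 probes tested, the median difference was -0.02 and 48.4% were toward YFP+. The 6 lambda probes had a median difference of 3.09, or 8.51-fold, and all 6 were toward YFP+. With normexp background correction, which lifts dim signals, the medians were 2.62 for kappa and 2.07 for lambda.

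A probe entered the fit over all probes if the scanner software detected it on 6 or more of the 12 arrays; 63 kappa and 6 lambda probes met this, and 22 kappa probes did not. Because a probe silent in YFP- can pass this filter only through its YFP+ arrays, the tested members are not a neutral sample of the family. With limma over all 25435 probes, 0.283% were called higher in YFP+ at an adjusted p under 0.05, and 1.24% higher in YFP-, 1.53% in all. Among the tested members 19 kappa and 2 lambda probes were called higher in YFP+ and 0 were called higher in YFP-. Nothing is read from that count, since the members were chosen on this contrast. With slide as a factor 31 kappa probes were called higher in YFP+, and 0.503% of all tested probes. Within the 3 slides, taken alone, the median kappa difference was 1.60, 4.15 and 5.13. For lambda the same 3 values were 1.27, 5.58 and 2.59.

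YFP+ arrays were also brighter before scaling. Their 75th percentile of processed signal was 3264 to 3931, against 2121 to 3332 in YFP- arrays. With this brightness as a covariate the median kappa difference was 4.69 and limma called 0 kappa probes higher in YFP+, and 0.0118% of all tested probes. In that fit 37 of the 63 tested kappa probes were toward YFP+ at an unadjusted p under 0.05, as were 6.59% of all tested probes. How brightness bears on the light chain levels was not tested beyond that fit. In such bulk samples, more cells that hold a transcript and more of it per cell cannot be told apart.

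Groups did not overlap for 11 kappa and 2 lambda probes, all higher in YFP+; among all tested probes 0.405% had such a separation. Those of kappa were ENSMUST00000103312, ENSMUST00000103314, ENSMUST00000103317, ENSMUST00000103318, ENSMUST00000103320, ENSMUST00000103322, both probes of ENSMUST00000103324, both of ENSMUST00000103397, and ENSMUST00000103398. In locus order they lie in 2 stretches of the kappa members, near the start and near the end.

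The probes whose array descriptions name a constant or joining region, AF138742 and Igkv4-53, come first. This choice rests on descriptions alone, so members with other names can report a constant region too. AF138742, the J-C lambda 3 cluster probe, ranged from -2.78 to 2.70 in YFP+ (median 0.26) and from -3.05 to -1.26 in YFP- samples (median -2.56). Its difference was 2.42 ± 0.87 (limma's standard error, n = 6 arrays a group), and the groups overlapped, since YFP+ tumours 2 and 6 lay among the YFP- samples. The probe of ENSMUST00000103749 that shares 42 bases with it ran from -6.75 to 2.02 in YFP+ (median -0.34) and from -4.94 to -1.52 in YFP- samples (median -3.71). Centred on their group means, the 2 probes correlated at r = 0.94 over the 12 arrays, and their shared bases mean that they are not separate measurements. The second ENSMUST00000103749 probe, without the shared run but overlapping the first in position, differed by 3.76 ± 1.16.

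Igkv4-53 is named for a V segment, while its array description is that of a kappa constant region cDNA; which region its probe reports was not settled here. Its annotated position lies away from the end of the locus that holds the constant region, so its level is not read as that of the constant region. The probe was above background in 4 YFP+ samples and in 0 YFP- samples and was not tested. Its levels were -3.67, -7.23, -3.63, -2.08, -1.39 and -7.34 in YFP+ tumours 1 to 6, again with tumours 2 and 6 lowest, and -7.15 to -5.44 in YFP- samples. Counting the dimmest detectable signal as the YFP- level, it was at least 1.36-fold higher in YFP+.

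ENSMUST00000103410 lies at the highest coordinate among the kappa members, the end of the locus at which the constant region lies. Read in triplets from its first base, its printed sequence codes for protein throughout and closes with a stop codon. A probe at the end of the constant region would read so, and would report kappa transcripts whatever V segment they hold. Its array description does not name that region. The probe was the brightest of the kappa members over the 12 arrays, which depends on the probe as well as on the transcript. Its levels in YFP+ tumours 1 to 6 were 6.24, 4.81, 4.51, 5.10, 6.20 and 4.25. In YFP- samples they were 2.03, 4.08, 1.05, 4.63, 5.34 and 0.92. All 12 arrays detected it. The YFP- samples fell into high values in tumours 2, 4 and 5 and low values in tumours 1, 3 and 6, and the high ones lay within the YFP+ range or just under it. Its difference, 2.17 ± 0.78, or 4.52-fold, was below the kappa median.

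The 2 lambda features with the largest differences were also those whose groups did not overlap. The symbol Iglv1 is that of a V segment, but whether its probe lies in a V segment or a constant region was not settled. Iglv1 had levels of -0.27 to 3.56 in YFP+ (median 2.34) and of -3.48 to -2.01 in YFP- samples (median -2.76), a difference of 4.88 ± 0.57. ENSMUST00000103746 had -0.98 to 3.58 in YFP+ (median 2.08) and -4.26 to -1.94 in YFP- samples (median -2.90), a difference of 4.62 ± 0.72. In both, the lowest YFP+ sample was tumour 6. ENSMUST00000103751 was the exception of the lambda locus, with -2.52 to -0.10 in YFP+ and -3.53 to -1.29 in YFP- samples, a difference of 0.85 ± 0.48 and groups that overlapped.

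Of the other kappa features, ENSMUST00000103312 showed the largest difference by value. It was above background in 6 of 6 YFP+ and 0 of 6 YFP- samples, with levels of 1.54, -1.63, 1.21, 1.83, 2.87 and -2.23 in YFP+ tumours 1 to 6. The YFP- levels, -7.14 to -6.41, are at background, so the difference is a bound: at least 38.6-fold higher in YFP+. Next was ENSMUST00000103321, with 0.68 to 3.89 in YFP+ (median 2.93) and -6.76 to 0.78 in YFP- samples (median -4.31), a difference of 6.69 ± 1.12. There the YFP- sample of tumour 2, at 0.78, stood above the YFP+ sample of that tumour, at 0.68. ENSMUST00000103393 (6.33 ± 1.64), ENSMUST00000103370 (5.67 ± 1.06) and probe A_52_P502849 of ENSMUST00000103401 (5.65 ± 1.52) came next by value, each with 1 high YFP- sample. Of the 6 YFP- arrays these 3 were above background on 2, 1 and 1, and ENSMUST00000103321 on 4, so their sizes and their order depend on the background level. The other probe of ENSMUST00000103401, A_55_P2183369, was detected on all 12 arrays and differed by 2.65 ± 0.71.

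The other bright kappa features were detected on all 12 arrays and differed less. ENSMUST00000103318 ranged from 2.10 to 5.38 in YFP+ (median 3.72) and from -0.11 to 1.82 in YFP- samples (median 1.11), a difference of 2.56 ± 0.54. Its near copy ENSMUST00000103322 ranged from 2.22 to 5.04 (median 3.98) and from 0.40 to 1.73 (median 1.34), a difference of 2.48 ± 0.51. Both pairs of groups were apart, with YFP+ tumours 2 and 6 just above the highest YFP- sample. ENSMUST00000103399 differed by 3.23 ± 0.62, ENSMUST00000103304 by 3.09 ± 0.74 and ENSMUST00000103391 by 2.82 ± 1.08. Over the 25 kappa probes detected on all 12 arrays the median difference was 3.12.

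The smallest differences among tested kappa features were those of ENSMUST00000103384 (0.64 ± 0.42), ENSMUST00000103313 (1.1 ± 0.72), ENSMUST00000103387 (1.18 ± 2.01), ENSMUST00000103392 (1.29 ± 1.31) and ENSMUST00000103334 (1.52 ± 0.70). ENSMUST00000103384 was detected on all 12 arrays, at -2.36 to 0.42 in YFP+ and -1.81 to -1.24 in YFP- samples, and YFP+ tumour 6 lay below every YFP- sample. The small difference of ENSMUST00000103387 went with a wide spread, given with its values in single YFP- arrays.

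Near the detection limit used for testing, ENSMUST00000103328 (probe A_52_P1190151), U29631 and ENSMUST00000103374 were above background on 6 arrays and were tested, with differences of 5.11 ± 1.43, 3.0 ± 0.95 and 3.27 ± 1.39. ENSMUST00000103390, on 5 arrays, was not tested and differed by 2.60. In all, 4 kappa probes were above background on exactly 6 arrays and 8 on exactly 5. Over the 22 untested kappa probes the median difference was 2.75, from -0.51 to 5.59, and 17 of them were above background on none of the YFP- arrays.

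Members varied together within YFP+. Of the 85 kappa probes, 75 had their lowest YFP+ value in tumour 2 or 6 and 77 their highest in tumour 4 or 5, of which 60 were in tumour 5. The median SD of a kappa probe was 1.99 in YFP+ and 1.65 in YFP- samples, against 0.56 and 0.65 over all tested probes. Centred on group means, pairs of near copies correlated at a median r of 0.81 over the 12 arrays, and the remaining pairs at 0.55. Pairs of 1 kappa and 1 lambda probe had a median r of 0.57. All these values share the 12 arrays and their brightness, and they are given as descriptions.

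The 36 kappa probes on the plus strand had a median difference of 3.43 and the 49 on the minus strand one of 3.51. Across the 85 probes, which are not independent, Spearman's rho between position and difference was -0.15. The windows held 30 further probes that did not meet the naming rule, with a median difference of 0.03, 15 of them toward YFP+. Of these, 7 carry Ensembl transcript numbers from ENSMUST00000103306 to ENSMUST00000103379, among those of the members; these 7 were toward YFP+, from 1.09 to 4.69, and ENSMUST00000103345 (4.69) was called. The other 23 had a median of -0.42. They hold 2 more Ensembl transcripts, ENSMUST00000074116 at 0.17 and ENSMUST00000114209 at -0.69, the second above background on 0 arrays. Most of the 23 were toward YFP-, some of them above background on 0 arrays, such as A_55_P2169569 at -0.42. But A_55_P2087425 at 4.19 and NAP062352-1 at 3.26 were toward YFP+. Their positions overlap those of the members ENSMUST00000103393 and ENSMUST00000103365. Rpia, a gene of the pentose phosphate pathway just past the kappa locus, differed by 0.68.

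Single kappa features stood out in single YFP- arrays; these were singled out after their values were seen. For 81 of 85 probes the highest of the 12 arrays was a YFP+ array, 59 times that of tumour 5. The other 4 were highest in a YFP- array, 3 of them in tumour 5 and 1 in tumour 4. ENSMUST00000103387 was at 3.50 in YFP- tumour 5 and 1.70 in YFP- tumour 2, while its YFP+ values ran from -7.44 to 0.33. The other YFP- samples were between -7.39 and -2.98, so the YFP- group held both the highest values and values at background.

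ENSMUST00000103393 was at 4.05 in YFP- tumour 4, between -6.77 and -3.70 in the other YFP- samples, and at 3.24 in YFP+ tumour 4. Its closest member, ENSMUST00000103395, matches it at 91.7% of 60 bases and was at -2.47 in the same YFP- array, again the highest of its group. ENSMUST00000103401 (probe A_52_P502849) was at 1.90 in YFP- tumour 5 and at -6.99 to -4.93 in the other YFP- samples. The other probe of that feature, A_55_P2183369, was detected on all 12 arrays and did not stand out so. Its YFP- samples of tumours 1 to 6 were at -3.16, -0.01, -0.19, -2.09, 0.93 and -0.09. ENSMUST00000103303 was at 0.99 in YFP- tumour 4, where the median of the other YFP- samples was -4.56, and at 2.22 in YFP+ tumour 4. ENSMUST00000103393 and ENSMUST00000103303 were thus high in YFP- tumour 4 and probe A_52_P502849 of ENSMUST00000103401 in YFP- tumour 5, while ENSMUST00000103410 was high in both.

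Genes that act with light chains were taken from lists and tested in the same limma fit, adjusted over all 25435 probes. Of all these probes 2773 had an unadjusted p under 0.05 with limma, and of the 100 tested list genes together 13 did. Of 22 plasma cell genes, all tested, 0 were called in either direction and 5 had an unadjusted p under 0.05; 16 were toward YFP+, and the median difference was 0.29. The J chain gene Jchain, whose product links antibody units into polymers, ran from -0.62 to 3.89 in YFP+ (median 2.74) and from -6.61 to 1.57 in YFP- samples (median -2.85). The difference was 4.78 ± 1.47 with limma's adjusted p = 0.18, and 0.024 with slide as a factor. Its YFP- samples of tumours 4 and 5 were above background and reached into the YFP+ range, and tumours 3 and 6 were at background.

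Pou2af1, a coactivator of immunoglobulin transcription in B cells, differed by 3.08 ± 1.12 (limma's adjusted p = 0.29, and 0.0056 with slide as a factor). Mzb1, a chaperone of antibody assembly, differed by 2.38 ± 1.08 (limma's adjusted p = 0.45), from -6.31 to -0.32 in YFP+ and from -6.50 to -2.92 in YFP- samples. On slide 1 alone its difference was -0.80. Tnfrsf17, a survival receptor of plasma cells, differed by 1.81 ± 1.0, Creld2 by 1.0 ± 0.35 and Irf4, a factor needed for plasma cells, by 0.85 ± 0.27 (limma's adjusted p = 0.57, 0.25 and 0.19). Xbp1 and Prdm1, regulators of the secretory state that macrophages express too, differed by 0.25 ± 0.24 and -0.06 ± 0.23. Sdc1, the plasma cell surface marker syndecan 1, differed by -1.13 ± 0.35 (limma's adjusted p = 0.18, and 0.048 with the tumour number as a block).

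Within YFP+ the order of the tumours was close to that of the kappa median for some of these genes and not for others. Jchain, Pou2af1 and Derl3 ran 6, 2, 3, 1, 5 and 4 from low to high, Mzb1 ran 2, 6, 3, 1, 5 and 4, and the kappa median ran 6, 2, 3, 1, 4 and 5. Irf4 ran 6, 2, 1, 3, 5 and 4, Xbp1 ran 6, 5, 2, 1, 3 and 4, and Tnfrsf17 ran 2, 1, 6, 5, 3 and 4. Correlations with the kappa median over the 12 arrays, both centred on group means, were 0.89 for Derl3, 0.86 for Pou2af1, 0.81 for Mzb1 and 0.79 for Jchain. They were 0.67 for Irf4, 0.39 for Tnfrsf17, 0.36 for Xbp1, 0.02 for Prdm1 and -0.28 for Sdc1. Of the same plasma cell list, Eaf2 was at -0.30 and Cd38 at -0.58. High values were not particular to that list: Nkg7 and Cd3e of the T and NK cell list were at 0.79 and 0.54. Of the macrophage list, Adgre1 was at 0.53 and Mertk at -0.55. Among tested features off chromosomes 6, 12 and 16, the most alike were Igkv4-72 (r = 0.90, with no annotated position), A630012P03Rik (0.90), A_55_P2123711 (0.89), Derl3, Kmo (0.88), Tns4 (0.88), 4921536K21Rik (0.88) and LOC102641266 (0.88). These are the 8 highest of all the tested features so placed, from 12 arrays that share brightness and slide, and they are descriptions.

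Among B cell surface genes none passed the test with limma. Of 20 such genes 15 were tested, 0 were called and 1 had an unadjusted p under 0.05, with a median difference of 0.33. Ms4a1, a surface protein of mature B cells, was above background on 1 of the 12 arrays. Cd79a, a signalling chain of the B cell receptor, differed by 0.33 ± 1.16, and its partner Cd79b by 0.76 ± 0.25 (limma's adjusted p = 0.96 and 0.21). Of 13 B lineage transcription factors, 1 was called, in the other direction: Ebf1, an early B lineage factor that stromal cells express as well, was lower in YFP+ by a difference of -3.47 ± 0.59 (limma's adjusted p = 0.011). Pax5, which sets B cell identity, differed by -0.24 ± 0.33. Ebf1 was above background on 1 of 6 YFP+ and 5 of 6 YFP- arrays, so the size of its difference depends on the background level, and with normexp it was -1.26. It was not called by limma with the tumour number as a block (-3.47, adjusted p = 0.076), with array brightness as a covariate (-2.33, 0.44), or with slide 1 (-2.92, 0.21) or slide 3 (-3.70, 0.065) left out.

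The light chain rearrangement list, which holds the surrogate light chain genes, had 11 of 16 genes tested with limma, 0 called, 2 at an unadjusted p under 0.05 and a median difference of -0.05; Rag1 and Rag2 did not pass the filter on low signal. Vpreb1, Vpreb2 and Igll1, the surrogate light chain of precursor B cells, differed by -0.34 ± 0.87, -0.02 ± 0.55 and -0.67 ± 0.43. No heavy chain constant region was found by symbol among the array's names, so 0 such features were compared.

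Fc receptors bind antibodies by the constant part of the heavy chain. Of 14 Fc and polymeric immunoglobulin receptors 11 were tested with limma, and 0 had an adjusted and 0 an unadjusted p under 0.05, with a median difference of -0.11. Fcgr1, Fcgr2b, Fcgr3 and Fcgr4, the Fc gamma receptors of macrophages, differed by 0.12 ± 0.23, -0.11 ± 0.21, -0.17 ± 0.19 and -0.11 ± 0.16. All 4 were detected on all 12 arrays.

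Markers of the labelled cell type and of other types were read beside these values. All 16 macrophage markers were tested with limma and 0 were called, 1 at an unadjusted p under 0.05, with a mean log2 level over the list of 3.55 to 4.21 in YFP+ and 3.78 to 4.35 in YFP- samples. Csf1r and Adgre1 differed by -0.16 ± 0.29 and -0.19 ± 0.23. The tested plasma cell genes had a mean level of 0.42 to 1.56 in YFP+ and 0.14 to 0.81 in YFP- samples, and the tested B cell surface genes -1.20 to -0.32 and -1.48 to -1.02. Of 18 T and NK cell genes 11 were tested, 0 were called with limma, 1 had an unadjusted p under 0.05 and the median difference was 0.38. The same counts for the 8 plasmacytoid dendritic cell genes were 0 and 1, with a median of -0.05. Whether cells of these other types account for the light chain signal was not tested.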

How the data were processed

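Macrophage RNA of 6 YFP+ and 6 YFP- samples was hybridised to one-colour (Cy5) arrays. The red intensity of each spot was deposited as the scanner software wrote it, with the background already subtracted; the software was Agilent Feature Extraction 11.5.1.1, as its files and the submitters' processing notes state. They also deposited a value table, on a log2 scale per its values, with a median of 8.83 in each of the 12 columns; its ranks match the processed signal, it served as an alternative, and 0 of its columns were left out.

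There were 1377 control spots, not used, and 0 saturated spots. Replicate spots of a probe (10 for each of 399 probes) were averaged, and 35 of the 39429 probes, which lacked a value on some array, were dropped. The 75th percentile of each array was taken off its log2 signals. The 25435 probes that the software detected on 6 or more of 12 arrays were fitted with limma 3.58.1 in R 4.3.3, group as the only factor, two-sided, with Benjamini-Hochberg adjustment over all probes and a threshold of 0.05. The fit was tested on simulated data. Levels and differences of the members cover all 91 probes; "at least" folds set the YFP- level at the dimmest signal called well above background on each array. Intensities of 12 arrays limit the precision.

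The members, the gene lists and the rules were chosen with earlier results of these data known. Named members are all constant, joining and lambda features; the 6 brightest, the 5 largest and the 5 smallest differences of kappa; and up to 4 near the detection limit. Named list genes are up to 4 with the smallest p, and a few that the rule names. Each list gene is its probe with the highest mean. Positions are the array's mm9 annotation, and probe sequences come from the deposited files. Alternatives tried were tumour number or slide as blocks, normexp with an offset of 50, quantile normalization, median centring, the value table, other filters, 1 probe per gene name, an intensity trend, array brightness, leaving out each array or slide, each slide alone and other member rules. Tables were made with scipy 1.17.1, numpy 2.4.6 and pandas 2.3.3 in Python 3.11.15.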

Additional observations from a re-analysis of the deposited data

Results flagged for a closer look

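A sample was singled out where its gap to the nearest other sample of its group of 6, over the range of the group, passed Dixon's 95% critical value of 0.625. Of 96 groups checked 10 did so. Chance gives about 1 in 20 for independent values of normal spread. These groups share arrays and near copies, and some lie mostly at background, so no excess over chance is read from the count.

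Among kappa features 6 YFP- samples lay far above the rest of their group. These were ENSMUST00000103328 (probe A_52_P1190151) at -2.39 in tumour 1, ENSMUST00000103370 at -2.21 and ENSMUST00000103393 at 4.05 in tumour 4, and ENSMUST00000103334 at -0.14, ENSMUST00000103399 at 2.06 and ENSMUST00000103401 (probe A_52_P502849) at 1.90 in tumour 5. The other 5 YFP- values reached at most -6.44, -6.43, -3.70, -1.96, -0.20 and -4.93 for these 6 features in that order. On the other probe of ENSMUST00000103401, A_55_P2183369, YFP- tumour 5 was at 0.93 and tumour 2 at -0.01, so tumour 5 did not stand far apart.

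Samples far below their group were YFP- tumour 4 for ENSMUST00000103313, at -6.71 against -4.04 or higher in the others, and YFP+ tumour 6 for ENSMUST00000103387, at -7.44 against -2.58 or higher.

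Outside the members, Adgre1 was lowest in YFP+ tumour 6, at 3.18 against 3.66 or higher. Ebf1 was highest in YFP+ tumour 1, at -4.30 against -6.55 or lower in the other YFP+ samples.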

How the results depend on the processing

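The counts of calls moved with the settings far more than the median differences did. The fit without blocks called 388 probes, 19 kappa, 2 lambda and 1 list gene. With slide as a factor 582 probes, 31 kappa and 5 list genes were called (Jchain, Pou2af1 and Creld2 higher in YFP+, Ebf1 and Ung higher in YFP-). With tumour number as a random replicate block and slide as a factor it was 601 probes, 32 kappa and 5 list genes. Normexp gave 609 probes and 32 kappa, an intensity trend with robust variances 485 probes and 34 kappa, and no filter 357 of 39394 probes and 11 kappa. A filter on all 12 arrays gave 250 probes and 0 list genes. Array brightness as a covariate gave 12 probes, 0 kappa, 1 lambda and 0 list genes. Leaving out slide 1 gave 174 probes; leaving out slide 2 gave 91 probes, 5 kappa and 1 lambda; leaving out slide 3 gave 225 probes, 2 kappa, 0 lambda and 0 list genes. Each slide alone, with 4 arrays, gave 0 calls of any kind by limma, with 2224, 2184 and 2007 probes at an unadjusted p under 0.05 on slides 1, 2 and 3; of these 33, 37 and 51 were kappa, all toward YFP+ but 1 on slide 2. Leaving out 1 array gave 7 to 27 kappa calls, 2 lambda calls each time, 296 to 399 calls over all probes and 1 list gene each time. Without YFP+ tumour 1, 3, 4 or 5 the kappa calls were 8, 10, 7 and 7, and without YFP- tumour 1, 2, 3, 4 or 6 they were 9, 11, 7, 12 and 9. The causes were not tested.

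The median kappa difference stayed between 3.02 and 3.99 and the lambda one between 2.52 and 3.92 with 1 array left out. Normexp gave 2.62 and 2.07, and leaving out slide 2 gave 3.37 and 1.93. On slide 1 alone they were 1.60 and 1.27, the kappa one was 5.13 on slide 3 alone, and the lambda one 5.58 on slide 2 alone and 4.88 for Iglv1, the only member with an Igl symbol; the 2 members with an Igk symbol had a median of 1.89. Mzb1 was the result that reversed, to -0.80 on slide 1 alone. Centring arrays on their median moved the median of all tested probes from -0.02 to 0.19 and the calls from 72 higher and 316 lower in YFP+ to 119 and 262; relative to that shift the kappa median of 3.71 is as before.

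The titles share tumour numbers between the groups, and whether a shared number means 1 animal was not stated. The pairing was not settled by the values. Deviations of samples with the same number correlated at -0.28, 0.11, -0.12, 0.36, 0.18 and 0.28 for tumours 1 to 6. Of 6 samples 3 correlated best with their own number, those of tumours 4, 5 and 6. Only these numbers had both of their arrays on the same slide, so a shared tumour and a shared slide cannot be told apart. With the tumour number as a replicate block limma called 313 of all 25435 tested probes, 56 of them higher in YFP+. In that fit 20 members were called, 12 of them among the 21 called without it. Sdc1 was called (limma's adjusted p = 0.048) and Ebf1 was not (0.076).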
